A study of Homo sapiens with 42 samples.

Results

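The epidermal growth factor (EGF) receptor and the growth factors that bind its family were followed as 9 genes, taken by name from a table of read counts for 28266 gene symbols. The receptors were EGFR and ERBB3. The ligands of EGFR were AREG (amphiregulin), EREG (epiregulin), HBEGF (heparin-binding EGF-like growth factor), TGFA (transforming growth factor alpha), BTC (betacellulin) and EPGN (epigen), and NRG1 (neuregulin 1) is a ligand of ERBB3 and its relative ERBB4. All 9 symbols were found in the table. EGFR is a receptor tyrosine kinase, and ligand binding makes it pair with a second receptor of the family and signal through RAS and the ERK kinases. Its ligands are made as membrane-anchored precursors that metalloproteases cut from the cell surface, so that a cell can act on itself or on its neighbours. Senescent fibroblasts are known to secrete growth factors and cytokines, several EGFR ligands among them, as part of the senescence-associated secretory phenotype.

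The cells were human lung fibroblasts of the IMR90 strain, and the study asked what lowering COPB2, a coat protein of the COPI vesicles that move cargo at the Golgi, does to senescent and to non-senescent cells. IMR90 ER:RAS cells carry a fusion of the oestrogen receptor with oncogenic RAS, which 4-hydroxytamoxifen (4OHT) switches on to give oncogene-induced senescence (OIS), and plain IMR90 cells were made senescent by DNA damage with bleomycin. The 18 ER:RAS libraries came from cells given 100 nM 4OHT or its solvent DMSO, and the 24 IMR90 libraries came from cells given 50 µg/ml bleomycin for 24 h or DMSO. After 7 days of culture, every group, controls included, received doxycycline at 1 µg/ml for 72 h to switch on an shRNA, either a control or 1 of 2 that target COPB2, and RNA was taken on day 10. The cell line, treatment and shRNA make 12 groups, with 3 libraries in each ER:RAS group and 4 in each IMR90 group. The ER:RAS cells hold the overexpressed RAS fusion with DMSO as well as with 4OHT. In OIS the activation of the fusion and senescence come together, and their effects on the ligands cannot be told apart. The labels do not say whether libraries of a group came from separate cultures. A legend of the study calls its replicates of COPB2 knockdown in senescent cells independent experiments, but its number of replicates for bleomycin is not the 4 libraries found here, so that p-values are best read as measuring the spread between these libraries.

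Total counts ran from 13148194 to 23597310 per library. Levels are given as CPM (counts scaled to a library of 1000000, with library sizes adjusted by the trimmed mean of M values), as mean ± SD. A floor of 3 counts per library was worth 0.11 to 0.271 CPM, and floors and intervals cover counting error only. The labels were borne out by the genes that define them: COPB2 had 267 to 620 CPM in 14 libraries with the control shRNA and 33.9 to 122 CPM in 28 with a COPB2 shRNA, and HRAS had 47753 to 75170 counts in ER:RAS libraries against 461 to 2656 in IMR90 libraries. All 12 fibroblast markers examined were above 1 CPM on average in each of the 4 cell states (summed levels from 11400 to 33700 CPM over all libraries), while 3 to 4 of 11 epithelial markers were (62.2 to 334 CPM, most of it the keratin genes KRT8 and KRT18, with the keratinocyte marker KRT5 at 0 in both ER:RAS groups with the control shRNA). The summed level of 6 endothelial markers was 16.2 to 25.6 CPM in DMSO-treated ER:RAS cells and 41.9 to 87.6 CPM in OIS, and that of 6 leukocyte markers, of which CD68 alone passed 1 CPM, was 17.4 to 44.2 and 82.0 to 121 CPM. With the control shRNA, 35.7% of all genes tested were called in either direction in OIS and 31.2% after bleomycin. Of the fibroblast markers, 7 of 12 were called lower and 1 higher in OIS with the control shRNA (median log2 fold change -1.28), and 9 of 12 lower and none higher after bleomycin (-1.09). Of the endothelial markers 4 were called higher in OIS, PECAM1, CDH5, CLDN5 and VWF, and TEK was called lower. Of the leukocyte markers CD68, a lysosomal protein of macrophages, was called higher. The part of other cell types in the results was not tested. In bulk RNA, fewer cells of a kind and less RNA per cell cannot be told apart.

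**Figure D1:**
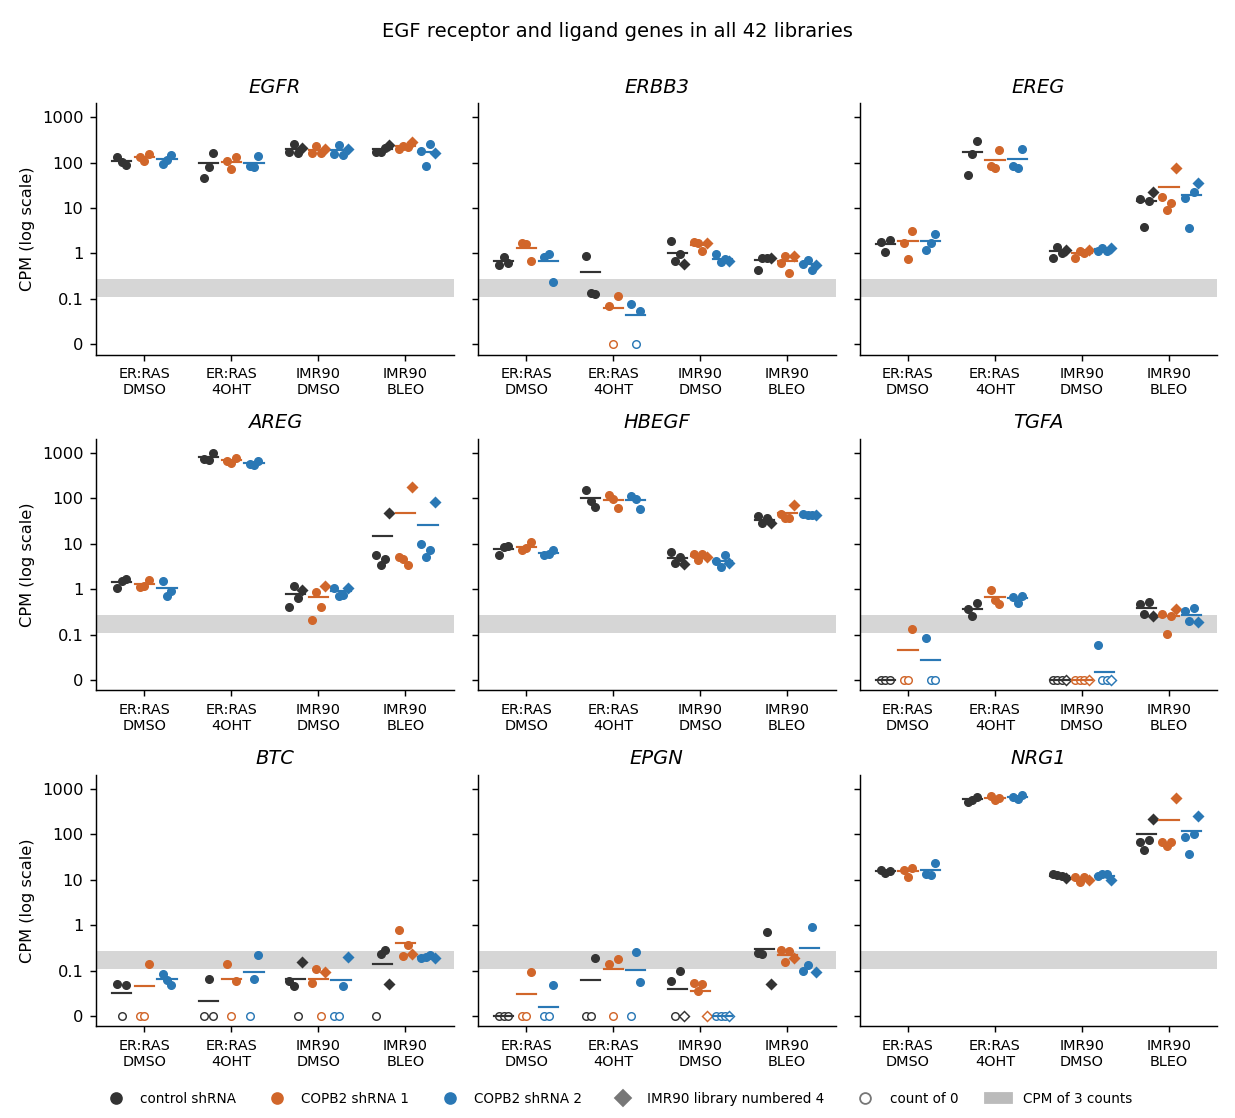
Level of each of the 9 genes in all 42 libraries. Each panel is a gene, the x axis gives the 4 cell states, the y axis is CPM on a log scale, each point is a library (diamonds are IMR90 libraries numbered 4, open points have a count of 0 and stand at the foot of the panel), the bars are group means, the colours mark the shRNA, and the grey band is the floor of 3 counts. AREG, EREG, HBEGF and NRG1 lie higher in senescent than in DMSO-treated cells of both lines, EGFR overlaps throughout, and TGFA, BTC and EPGN stay near the floor.

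EGFR itself, the receptor that AREG, EREG, HBEGF and TGFA share, was abundant in every group and did not differ with senescence beyond the spread between libraries. The gene lies at chr7:55019017-55211628 (GRCh38.p14, plus strand). With the control shRNA it had 130, 102 and 89.3 CPM in the 3 DMSO-treated ER:RAS libraries and 46.0, 78.2 and 166 CPM in the 3 OIS libraries. The OIS libraries spanned both sides of the DMSO libraries, with the lowest and the highest value of the 6. The log2 fold change was -0.21 (SE 0.42, adjusted p = 0.753, edgeR's quasi-likelihood test with Benjamini-Hochberg adjustment, used for all adjusted p-values here). In IMR90 cells EGFR had 170, 261, 166 and 211 CPM with DMSO and 168.5, 169.5, 210 and 238 CPM after bleomycin. These groups overlapped almost entirely (log2 fold change -0.08, SE 0.25, adjusted p = 0.856). Over all shRNAs EGFR ranged from 89.3 to 157 CPM in DMSO-treated ER:RAS cells, 46.0 to 166 CPM in OIS, 146 to 261 CPM in DMSO-treated IMR90 cells and 85.6 to 286 CPM after bleomycin. In the 12 group means it spanned 1.45 on the log2 scale, the narrowest span among the 7 members for which it was computed.

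ERBB3, a receptor of weak kinase activity that binds neuregulins, was close to the limit of what these libraries could count. It lies at chr12:56080108-56103505 (GRCh38.p14, plus strand). With the control shRNA it had 11, 13 and 13 counts in DMSO-treated ER:RAS cells and 10, 2 and 2 counts in OIS (log2 fold change -0.99, SE 0.72, adjusted p = 0.32). Replicate 1 of OIS stood apart from the other 2 libraries of its group, and without it the log2 fold change was -2.33 (adjusted p = 0.0326). With COPB2 shRNA 1, ERBB3 had 33, 26 and 15 counts in DMSO and 1, 0 and 2 counts in OIS. With COPB2 shRNA 2 it had 10, 16 and 5 counts in DMSO and 1, 0 and 1 counts in OIS. It fell in OIS with shRNA 1 (log2 fold change -4.28, SE 0.86, adjusted p = 0.00105) as with shRNA 2 (-3.79, SE 0.97, adjusted p = 0.00588). The summed counts were 20.1 times (95% counting interval from 6.63 to 99.8) and 14.8 times (from 3.78 to 128) as high in DMSO, after scaling for depth. In IMR90 cells with the control shRNA, ERBB3 had 31, 15, 20 and 11 counts with DMSO and 9, 14, 14 and 15 counts after bleomycin. These groups overlapped (log2 fold change -0.56, SE 0.33, adjusted p = 0.223). With COPB2 shRNA 1 it fell after bleomycin, from 33, 46, 23 and 36 counts to 11, 17, 7 and 19 counts (log2 fold change -1.21, SE 0.32, adjusted p = 0.00505), and with shRNA 2 the difference did not pass (-0.44, SE 0.35, adjusted p = 0.329).

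Of the 6 EGFR ligand genes, 4 lie in 1 cluster on chromosome 4. The order along the plus strand is EPGN (chr4:74308470-74316789), EREG (chr4:74365145-74388749) and AREG (chr4:74445136-74455005), followed by BTC on the minus strand (chr4:74744759-74794523), all on GRCh38.p14 per RefSeq. The interval from the start of EPGN to the end of BTC is 486054 bases and holds 7 RefSeq genes, and 56386 bases separate EREG from AREG. HBEGF lies at chr5:140332843-140346603 (minus strand) and TGFA at chr2:70447284-70553826 (minus strand). RefSeq promoter entries existed for 7 of the 9 genes, and ERBB3 and NRG1 were not matched. The 250 bases before the annotated start are printed for the 4 clustered genes, whose levels differed widely although they are neighbours, and for HBEGF, which changed with AREG and EREG from another chromosome. They are, 5′ to 3′ on the strand of the gene, chr4:74308220-74308469 for EPGN, chr4:74364895-74365144 for EREG, chr4:74444886-74445135 for AREG, chr4:74794524-74794773 for BTC and chr5:140346604-140346853 for HBEGF. Capitals mark matches to TATAAA (the TATA box), TGACGTCA (the cyclic AMP response element), TGACTCA (an AP-1 site) and CCAAT, searched on both strands, so that ATTGG stands for CCAAT on the opposite strand.
EPGN: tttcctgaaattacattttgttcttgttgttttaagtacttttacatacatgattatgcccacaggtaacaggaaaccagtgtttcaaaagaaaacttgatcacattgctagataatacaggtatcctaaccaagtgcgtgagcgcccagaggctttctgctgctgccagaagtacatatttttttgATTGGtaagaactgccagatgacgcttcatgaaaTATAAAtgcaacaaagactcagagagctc
EREG: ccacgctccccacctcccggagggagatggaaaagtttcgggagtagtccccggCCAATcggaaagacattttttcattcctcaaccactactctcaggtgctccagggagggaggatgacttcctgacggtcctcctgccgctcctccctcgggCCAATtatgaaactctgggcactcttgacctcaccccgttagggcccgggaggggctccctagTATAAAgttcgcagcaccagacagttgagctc
AREG: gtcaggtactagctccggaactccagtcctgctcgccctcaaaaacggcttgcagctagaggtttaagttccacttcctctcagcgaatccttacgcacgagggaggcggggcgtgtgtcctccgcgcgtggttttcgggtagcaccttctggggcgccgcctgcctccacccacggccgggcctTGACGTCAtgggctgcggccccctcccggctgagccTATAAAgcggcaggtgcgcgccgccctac
BTC: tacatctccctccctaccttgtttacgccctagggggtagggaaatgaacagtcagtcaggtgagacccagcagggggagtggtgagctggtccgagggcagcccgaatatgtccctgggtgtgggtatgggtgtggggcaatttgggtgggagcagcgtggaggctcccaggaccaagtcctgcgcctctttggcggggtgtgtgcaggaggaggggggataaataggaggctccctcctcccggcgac
HBEGF: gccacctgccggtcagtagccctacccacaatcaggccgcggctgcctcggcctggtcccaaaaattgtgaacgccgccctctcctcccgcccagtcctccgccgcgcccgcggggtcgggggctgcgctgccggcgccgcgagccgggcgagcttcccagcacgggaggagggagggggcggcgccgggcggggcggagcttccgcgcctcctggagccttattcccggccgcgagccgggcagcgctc

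EPGN, EREG and AREG each held TATAAA shortly before the start, from 29 to 24 bases upstream in EPGN and AREG and from 32 to 27 in EREG. This motif was present in 11.1% of 27305 RefSeq promoters of the same length. AREG also held TGACGTCA from 65 to 58 bases upstream, as did 1.77% of all promoters. EREG held CCAAT at 196 to 192 and at 95 to 91 bases upstream and EPGN held it on the opposite strand from 63 to 59, while 33% of all promoters held it on either strand. None of the printed windows held TGACTCA, which 4.16% of promoters did. BTC and HBEGF held none of the 4 motifs, which says only that these letters are absent from the windows. The GC content was 38% in EPGN, 58.0% in EREG, 65.2% in AREG, 62.0% in BTC and 76.4% in HBEGF.

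In OIS, AREG, EREG and HBEGF rose, with the largest fold change in AREG. AREG, a low-affinity EGFR ligand that was nearly silent in DMSO-treated cells, had 1.07, 1.52 and 1.68 CPM in the 3 DMSO-treated ER:RAS libraries with the control shRNA and 737, 705 and 1004 CPM in the 3 OIS libraries. Every OIS library was far above every DMSO library, and the 3 OIS libraries lay close together. This was a 534.5-fold rise of AREG (log2 fold change 9.06, SE 0.37, adjusted p = 2.68e-10). Its counts were 21 to 35 per DMSO library and 8167 to 15857 per OIS library. An older build carried a near-identical copy of this gene as AREGB, and the table holds no such symbol.

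EREG, which binds EGFR and ERBB4, had 1.83, 1.08 and 1.97 CPM in DMSO-treated ER:RAS cells and 54.5, 153 and 300 CPM in OIS. The groups did not overlap, but the OIS libraries differed among themselves far more than those of AREG did. EREG rose 97.6-fold (log2 fold change 6.61, SE 0.82, adjusted p = 1.51e-05). HBEGF, a strong EGFR ligand whose precursor is also the diphtheria toxin receptor, had 5.81, 8.62 and 8.75 CPM in DMSO and 155, 87.7 and 65.8 CPM in OIS. It rose 12.3-fold (log2 fold change 3.62, SE 0.36, adjusted p = 1.67e-06). EREG and HBEGF were ordered in opposite ways over the 3 OIS libraries, replicate 3 holding the highest EREG and the lowest HBEGF. The place of replicate 3 recurred with both COPB2 shRNAs, where it had 185 and 194 CPM of EREG against 74.3 to 85.9 CPM in replicates 1 and 2, and 60.0 and 59.1 CPM of HBEGF against 96.0 to 117 CPM. Replicate 1 was above replicate 2 for both genes there, so the opposite order did not hold between these. EREG shares part of its locus with the long noncoding RNA LOC105377276, and whether counting used the strand is not stated.

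NRG1, which signals through ERBB3 and ERBB4 and not through EGFR, rose in OIS as well. It had 16.5, 13.8 and 15.9 CPM in DMSO-treated ER:RAS cells and 505, 567 and 672 CPM in OIS. The OIS libraries were tightly grouped and far above each DMSO library. NRG1 rose 35.3-fold (log2 fold change 5.14, SE 0.31, adjusted p = 9.75e-09). NRG1 lies at chr8:31639245-32774046 (GRCh38.p14, plus strand) and overlaps 6 other annotated genes within its 1134802 bases.

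Of the 6 members that passed the filter on low counts in ER:RAS cells, 4 were called in OIS with the control shRNA, all of them higher, where 35.7% of the 14297 genes tested were called and 15.5% were called higher. The groups of these 4 did not overlap, nor did those of 38.5% of all genes. The median log2 fold change of the 6 was 4.38, beside -0.08 over all genes tested. With COPB2 shRNA 1 and with shRNA 2, 5 of 6 were called (ERBB3 being the addition), where 36.9% of genes were called in each. The log2 fold changes with shRNA 1 and shRNA 2 were 8.94 and 9.08 for AREG, 5.84 and 5.89 for EREG, 3.28 and 3.74 for HBEGF and 5.28 and 5.22 for NRG1, with the largest adjusted p among them 3.22e-05. Over all 9 OIS libraries AREG ran from 529 to 1004 CPM (median 662), EREG from 54.5 to 300 CPM (median 85.9), HBEGF from 59.1 to 155 CPM (median 96.0) and NRG1 from 505 to 721 CPM (median 634).

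**Figure D2:**
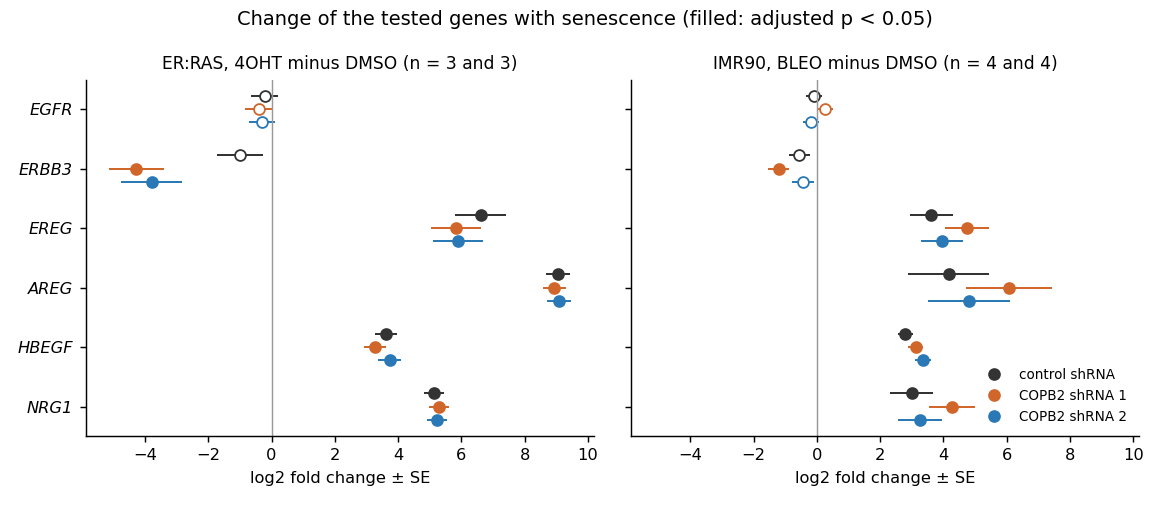
Change with senescence for the 6 tested genes. The x axis is the log2 fold change against DMSO with its SE as bars, the left panel is OIS and the right panel bleomycin, each of the 3 markers of a gene is a shRNA, and filled markers passed an adjusted p of 0.05. AREG has the largest change in both panels (9.06 in OIS and 4.17 after bleomycin with the control shRNA, the latter 2.60 and below EREG and HBEGF without the IMR90 libraries numbered 4) and EGFR, close to 0, was not called with any shRNA.

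TGFA, the ligand first known from transformed cells, appeared in senescent cells of both lines at a few counts per library. With the control shRNA it had 0 counts in all 3 DMSO-treated ER:RAS libraries and 4, 4 and 8 counts in OIS, and 0 counts in all 4 DMSO-treated IMR90 libraries and 10, 5, 9 and 5 counts after bleomycin. No DMSO library with the control shRNA held a read, so TGFA was at least 2.32-fold higher in OIS and at least 2.48-fold higher after bleomycin, against the floor of 3 counts per library. Over all shRNAs it had 4 to 14 counts in the 9 OIS libraries and 0 to 3 in the 9 DMSO libraries of ER:RAS cells. In IMR90 cells it had 2 to 10 counts in the 12 bleomycin libraries and 0 to 1 in the 12 DMSO libraries. TGFA did not pass the filter on low counts in either line, and in a fit with no filter it was called in all 6 senescence contrasts (adjusted p from 0.0001315 to 0.00451).

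BTC and EPGN, the 2 other ligands of the chromosome 4 cluster, stayed at or near the floor. BTC, which binds EGFR and ERBB4, had 0 to 4 counts in all 18 ER:RAS libraries. In IMR90 cells it had 1, 1, 0 and 3 counts with DMSO and 0, 4, 5 and 1 counts after bleomycin. With COPB2 shRNA 1 it had 14, 4, 7 and 5 counts after bleomycin and 1, 3, 0 and 2 with DMSO, a ratio of summed counts of 5.64 (95% counting interval 2.31 to 16.6). EPGN, a low-affinity EGFR ligand, was at 0 to 4 counts in each ER:RAS library, so no change in OIS was detectable at this depth. After bleomycin with the control shRNA it had 5, 4, 12 and 1 counts against 1, 0, 2 and 0 with DMSO, a ratio of 7.62 (2.29 to 39.8), and the groups touched at 1 and 2 counts. With COPB2 shRNA 2 it had 2, 2, 17 and 2 counts after bleomycin and none in 4 DMSO libraries (at least 2.04-fold higher). Replicate 3 alone carried most of those reads. In the fit with no filter BTC was called with shRNA 1 (adjusted p = 0.0267), and EPGN with the control shRNA (adjusted p = 0.0428) and with shRNA 2 (adjusted p = 0.00281).

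After bleomycin AREG, EREG, HBEGF and NRG1 rose too. HBEGF had 6.70, 3.76, 5.18 and 3.63 CPM in the 4 DMSO-treated IMR90 libraries with the control shRNA and 40.96, 29.5, 37.1 and 28.7 CPM after bleomycin. Its bleomycin libraries agreed closely and lay well above the DMSO libraries. HBEGF rose 6.96-fold (log2 fold change 2.80, SE 0.24, adjusted p = 3.00e-08). EREG had 0.778, 1.42, 1.03 and 1.21 CPM with DMSO and 16.1, 3.897, 14.3 and 22.3 CPM after bleomycin. Replicate 2 was the lowest of the bleomycin libraries, as it was with both COPB2 shRNAs, yet it stayed above every DMSO library. The log2 fold change of EREG was 3.62 (SE 0.67, adjusted p = 0.000265), a fold of 12.3.

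AREG had 0.419, 1.19, 0.636 and 0.948 CPM with DMSO and 5.74, 3.44, 4.66 and 46.5 CPM after bleomycin. All 4 bleomycin libraries exceeded the DMSO libraries, but replicate 4 stood far above the other 3. The log2 fold change of AREG was 4.17 (SE 1.28, adjusted p = 0.0159), a fold of 18.1, and it lost its call without replicate 4 of the bleomycin group (2.50, adjusted p = 0.122). NRG1 had 13.2, 12.6, 11.9 and 10.9 CPM with DMSO and 66.7, 45.5, 73.9 and 211 CPM after bleomycin. Replicate 4 was again the highest, with no overlap between the groups. NRG1 rose 7.99-fold (log2 fold change 3.00, SE 0.69, adjusted p = 0.0019).

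With the control shRNA 4 of 6 tested members were called after bleomycin, all higher, where 31.2% of the 14783 genes tested were called and 15.4% were called higher. The groups did not overlap for 4 of 6 members, as for 28% of all genes. The median log2 fold change of the 6 was 2.90, beside -0.01 over all genes tested. Markers of other cells moved in both directions. The leukocyte markers summed to 12.6 to 29.5 CPM in DMSO-treated IMR90 cells and 55.2 to 106 CPM after bleomycin. Most of that was CD68 (19.8 to 69.9 CPM), which was called higher. PTPRC (0.05 to 0.802 CPM) was called higher too, and CD14 was not called. Of 6 tested epithelial markers 2 were called higher, the cadherin CDH1 (0.0367 to 0.7725 CPM) among them, and 4 were not called. Of 4 tested endothelial markers PECAM1 and KDR were called higher and VWF lower. The summed endothelial markers were 23.9 to 36.1 CPM with DMSO and 7.76 to 34.7 CPM after bleomycin. The part of these markers in the ligand levels was not tested. With COPB2 shRNA 1, 5 of 6 members were called against 35.2% of genes, and with shRNA 2, 4 of 6 members against 40% of genes. The log2 fold changes with shRNA 1 and shRNA 2 were 6.08 and 4.82 for AREG (adjusted p = 0.00134 and 0.00517), 4.73 and 3.96 for EREG, 3.13 and 3.35 for HBEGF and 4.28 and 3.26 for NRG1. Without replicate 4 of the bleomycin group, the log2 fold change of AREG was 2.65 with shRNA 1 and 3.02 with shRNA 2, and that of NRG1 with shRNA 1 was 2.55.

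The bleomycin libraries numbered 4 stood apart from those numbered 1 to 3 with each shRNA, and not for every member. AREG was 46.5 to 175 CPM in the 3 libraries numbered 4 and 3.44 to 10.0 CPM in the 9 others. NRG1 was 211 to 629 CPM against 37.5 to 101 CPM. EREG was 22.3 to 74.5 CPM against 3.68 to 22.4 CPM, so that its ranges met. HBEGF (28.7 to 70.7 against 29.5 to 46.4 CPM) and EGFR (159 to 286 against 85.6 to 258 CPM) overlapped. The transcripts that mark the fusion were not raised in the libraries numbered 4: ESR1 had 3 to 5 counts against 1 to 11, and HRAS had 53.3 to 58.7 CPM against 61.3 to 175 CPM. Among senescence genes, CDKN1A was 2043 to 2396 CPM against 2891 to 4578 CPM, MKI67 was 0.903 to 1.87 against 0.0657 to 0.922 CPM and LMNB1 was 2.04 to 3.01 against 1.101 to 2.29 CPM. The summed endothelial markers were 21.6 to 34.7 CPM against 7.76 to 20 CPM, the epithelial markers 69.8 to 76.4 against 91.5 to 334 CPM, and the fibroblast markers 11400 to 19400 against 15900 to 26000 CPM. The part of any of these in the member genes was not tested.

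Without the IMR90 libraries numbered 4, AREG was 4.61 ± 1.15 CPM after bleomycin and 0.749 ± 0.399 CPM with DMSO (control shRNA, n = 3 each). AREG stayed called in that fit (log2 fold change 2.60, SE 0.43, adjusted p = 0.000484). These libraries were chosen by the levels seen in them, so the adjusted p-values of the fit are descriptive. NRG1 was then 62.0 ± 14.8 against 12.6 ± 0.645 CPM (log2 fold change 2.31, SE 0.28, adjusted p = 4.35e-05). EREG was 11.4 ± 6.58 against 1.08 ± 0.325 CPM (3.39, SE 0.58, adjusted p = 0.000624), and HBEGF was 35.8 ± 5.85 against 5.21 ± 1.47 CPM (2.79, SE 0.26, adjusted p = 3.60e-06). Leaving out these libraries thus took the log2 fold change of AREG from 4.17 to 2.60, that of NRG1 from 3.00 to 2.31, that of EREG from 3.62 to 3.39 and that of HBEGF from 2.80 to 2.79, and EREG and HBEGF then stood above AREG.

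**Figure D3:**
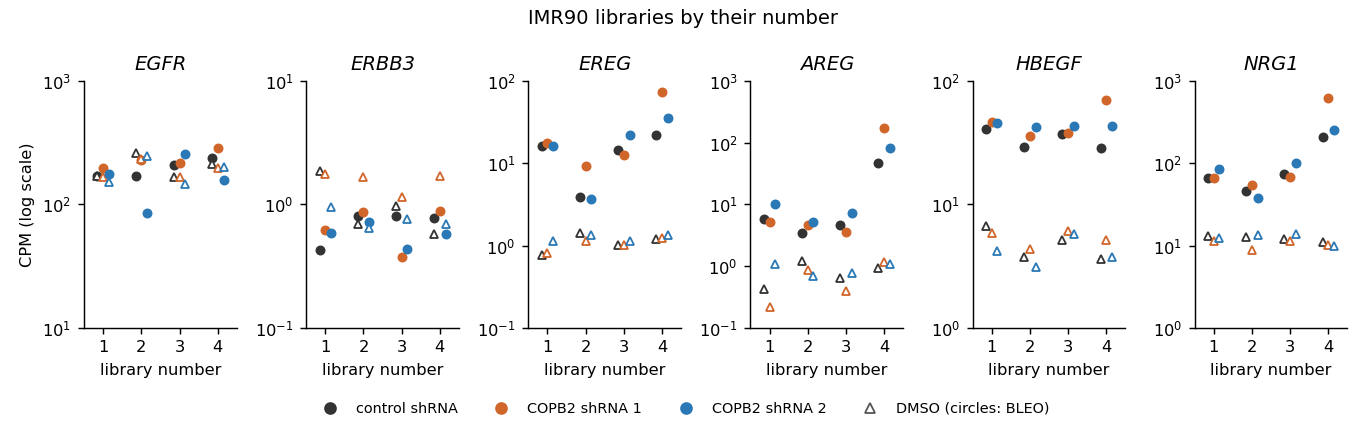
IMR90 libraries by their number for 6 genes. The x axis is the library number, the y axis is CPM on a log scale with its own range in each panel, circles are bleomycin libraries, triangles are DMSO libraries, and the colours mark the shRNA. In the bleomycin libraries numbered 4 AREG (46.5 to 175 CPM) and NRG1 (211 to 629 CPM) lie above all others, whereas those of EGFR (159 to 286 CPM) and HBEGF (28.7 to 70.7 CPM) overlap them.

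Whether the 2 kinds of senescence raised the ligands to a different extent was tested as the difference of the OIS and the bleomycin response with the control shRNA, in a fit of all 42 libraries. The response was larger in OIS for AREG, by 4.94 on the log2 scale (SE 1.52, adjusted p = 0.0182), and for EREG, by 3.03 (SE 0.95, adjusted p = 0.0203). Without bleomycin replicate 4 the difference for AREG was 6.65 (adjusted p = 0.00135), and without all IMR90 libraries numbered 4 it was 6.60 (adjusted p = 4.53e-10). AREG and EREG, 2 of 7 tested members, were called higher, where 20.3% of the 15299 genes were called and 8.14% were called higher. NRG1 narrowly missed the threshold (2.21, SE 0.81, adjusted p = 0.0509) and passed it under several other settings, among them the fit without the libraries numbered 4 (2.97, adjusted p = 1.1e-06). All IMR90 libraries numbered 4 were left out after AREG and NRG1 were seen to be high in those given bleomycin. Such a choice widens the differences of these genes by itself, so the adjusted p-values of that fit are no independent support. HBEGF (0.91, SE 0.40, adjusted p = 0.111), EGFR (-0.10, SE 0.45) and ERBB3 (-0.37, SE 0.72) did not pass. The difference for EREG lost its call when OIS replicate 3 (2.32, adjusted p = 0.0846) or DMSO replicate 2 of ER:RAS (2.82, adjusted p = 0.0528) was left out. The lines and the agents differ together in this comparison, and so cannot be told apart.

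Without induction, no member was called different between the lines. EGFR had 89.3 to 130 CPM in the 3 ER:RAS libraries and 166 to 261 CPM in the 4 IMR90 libraries treated with DMSO (control shRNA), and the ranges did not overlap. The difference did not pass the adjustment (log2 difference -0.92, SE 0.32, unadjusted p = 0.00764, adjusted p = 0.27, edgeR's quasi-likelihood test). HBEGF was 7.73 ± 1.66 CPM (SD, n = 3) in ER:RAS and 4.82 ± 1.44 CPM (SD, n = 4) in IMR90 cells, a log2 difference of 0.68 (SE 0.29, adjusted p = 0.372). None of 7 members was called, where 0.346% of genes were, and 2 of them (EGFR and NRG1) had groups that did not overlap, as did 12.7% of all genes. At an unadjusted p under 0.05, 2 members passed (EGFR and HBEGF). The Wald test of DESeq2 called none of the members either, and 165 genes in all.

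Scaled by the length of the canonical transcript (CPM per kilobase), the order of the genes differed between the cell states. In DMSO-treated cells of both lines EGFR was the highest of the 9 in every group, at 10.8 ± 2.08 CPM per kilobase (SD, n = 3) in ER:RAS and 20.4 ± 4.45 (SD, n = 4) in IMR90 cells with the control shRNA. HBEGF came next, at 3.28 ± 0.705 and 2.04 ± 0.61 CPM per kilobase, and NRG1, AREG and EREG followed. In OIS with the control shRNA AREG led with 661 ± 133 CPM per kilobase. NRG1 (48.5 ± 7.07), HBEGF (43.6 ± 19.7) and EREG (36.7 ± 26.8) came after it, and these 3 did not differ beyond their spread. EGFR, at 9.77 ± 6.27 CPM per kilobase, lay below them. After bleomycin with the control shRNA EGFR (19.8 ± 3.38) and HBEGF (14.4 ± 2.53) led, and AREG (12.2 ± 17.01) and NRG1 (8.29 ± 6.31) had spreads as wide as their levels. With the union of all exons as length, NRG1 came after HBEGF and EREG in OIS, and AREG still led.

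The make-up of the EGFR ligand pool was taken as the share of each of the 6 ligands in their summed CPM per kilobase. In all 9 DMSO-treated ER:RAS libraries and all 12 DMSO-treated IMR90 libraries HBEGF held the largest share (60.5% to 75.1% and 55.3% to 86.6%). In each of the 9 OIS libraries AREG held 87.4% to 90.7%, HBEGF 3.08% to 9.72% and EREG 1.75% to 7.18%. After bleomycin HBEGF held the largest share in 9 of 12 libraries, and AREG did in the 3 libraries numbered 4 (68.8%, 71.5% and 75.4%). The summed level was 3.51 to 6.73 CPM per kilobase in DMSO-treated ER:RAS libraries, 487 to 907 in OIS, 2.17 to 3.42 in DMSO-treated IMR90 libraries and 16.4 to 188 after bleomycin. TGFA, BTC and EPGN together stayed minor in every state, none exceeding 2.65% of the sum in any library.

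**Figure D4:**
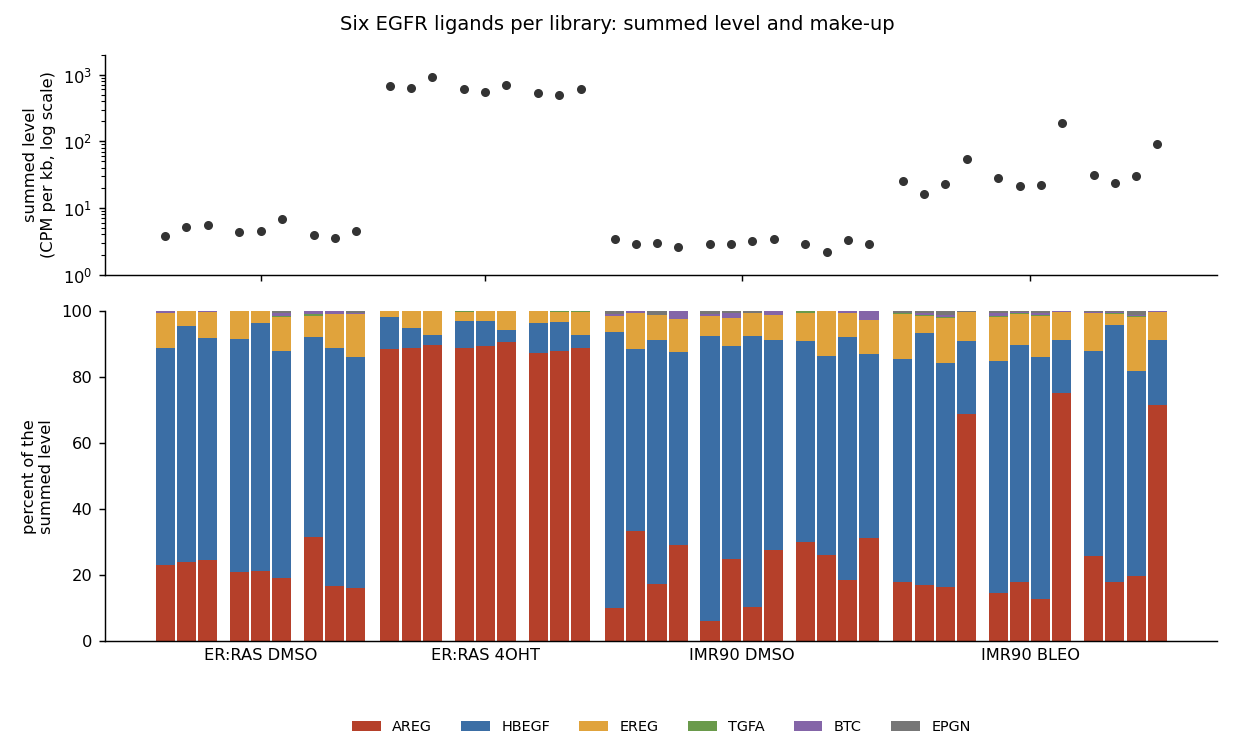
EGFR ligands per library. The upper panel gives the summed level of 6 ligands in CPM per kilobase of transcript on a log scale, and the lower panel gives the share of each ligand in that sum as stacked bars from 0 to 100%, with the 42 libraries along the x axis by group. AREG fills 87.4% to 90.7% of the bar in the 9 OIS libraries, and HBEGF fills most of it in DMSO-treated cells.

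Lowering COPB2 left the ligands and receptors without a called change in any of the 4 cell states. In the 8 contrasts of a COPB2 shRNA with the control shRNA 0 of 6 tested members were called. The background was low as well, with 0.00699% of genes called for each shRNA in DMSO-treated ER:RAS cells, 0.14% and 0.224% for shRNA 1 and 2 in OIS, 0.00676% for each in DMSO-treated IMR90 cells, and 0.00676% and 0.0744% after bleomycin. Where 1 gene was called, in DMSO-treated cells and with shRNA 1 after bleomycin, it was COPB2 itself. Simulated log2 changes of 1 in a senescence contrast were recovered for 13% of genes in ER:RAS and 61% in IMR90 cells, so changes of that size can be missed. The replicate number was also fitted as a block, with 1 effect per number shared by the DMSO and bleomycin libraries. Deviations of IMR90 libraries with the same number were correlated within a treatment (0.106 to 0.787). Between bleomycin and DMSO they were not throughout (-0.475 to 0.56 with the control shRNA), so this block follows the pairing only in part. With it, the calls among all genes in IMR90 cells were 2 instead of 1 for shRNA 2 with DMSO. They were 3 instead of 1 for shRNA 1 and 28 instead of 11 for shRNA 2 after bleomycin, and 0 members were called. At a threshold of 0.05 without adjustment in edgeR's quasi-likelihood test, ERBB3 passed in OIS with shRNA 1 (log2 fold change -2.33, unadjusted p = 0.0316, adjusted p = 1) and with shRNA 2 (-2.85, unadjusted p = 0.016, adjusted p = 0.771), at the counts of 0 to 2 given above. It also passed in DMSO-treated IMR90 cells with shRNA 1 (0.65, unadjusted p = 0.0469, adjusted p = 1). HBEGF passed after bleomycin with shRNA 1 (0.50, unadjusted p = 0.0334, adjusted p = 0.9998). The lowest adjusted p among the members was 0.759, and the Wald test of DESeq2 called 0 members in each of the 8 contrasts, giving no adjusted p for AREG in IMR90 cells. The effect of a knockdown was not called different between senescent and DMSO-treated cells for any member, nor for any of all genes tested (0% called in all 4 tests by edgeR's quasi-likelihood test). At an unadjusted p under 0.05, 194 and 263 genes passed for shRNA 1 and 2 in ER:RAS cells, ERBB3 among them (unadjusted p = 0.0131 and 0.0401), and 121 and 285 genes in IMR90 cells, while DESeq2 called 8 and 13 genes in ER:RAS cells and 0 in IMR90 cells, none of them a member.

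AREG in OIS was the ligand whose groups separated with a COPB2 shRNA. It had 737, 705 and 1004 CPM with the control shRNA, 662, 606 and 786 CPM with COPB2 shRNA 1 and 581, 529 and 657 CPM with COPB2 shRNA 2. All 3 libraries with shRNA 2 lay under all 3 with the control shRNA, whereas those with shRNA 1 overlapped them. The log2 fold changes were -0.26 (SE 0.26) and -0.48 (SE 0.26, unadjusted p = 0.0795, adjusted p = 1, edgeR's quasi-likelihood test). With shRNA 2 in OIS the groups of 2 members, AREG and ERBB3, did not overlap, as for 7.83% of genes, and with shRNA 1 those of ERBB3 did not, as for 6.36%. After bleomycin HBEGF had 45.9, 42.8, 43.5 and 43.4 CPM with COPB2 shRNA 2, each above the 28.7 to 40.96 CPM of the control shRNA (log2 fold change 0.37, SE 0.22, adjusted p = 0.759), and 1.89% of genes had groups that did not overlap there. It had 46.4, 36.2, 37.95 and 70.7 CPM with COPB2 shRNA 1. The numbers pair the libraries in these contrasts, and HBEGF was higher than the control of the same number in 4 of 4 pairs with each COPB2 shRNA. So was EGFR with shRNA 1 and AREG with shRNA 2. In DMSO-treated IMR90 cells EGFR was higher in 0 of 4 pairs with each shRNA, and NRG1 in 0 of 4 with shRNA 1. The share of all genes with such pairs was not computed. With the replicate number as a block the log2 fold changes of HBEGF were 0.50 (SE 0.19, adjusted p = 0.9996) and 0.38 (SE 0.19, adjusted p = 0.434), neither of them called. That block is shared with the DMSO libraries, so it is not a test of these pairs alone.

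AREG, EREG and NRG1 had higher means after bleomycin with COPB2 shRNA 1 than with the control shRNA, with replicate 4 the highest library of each group. AREG was 5.13, 4.71, 3.50 and 175 CPM with shRNA 1 and 5.74, 3.44, 4.66 and 46.5 CPM with the control shRNA. The first 3 libraries of both groups shared a range, and replicate 4 was the highest in each. The log2 fold change of AREG was 1.67 (SE 1.08, unadjusted p = 0.136, edgeR's quasi-likelihood test), and -0.06 without the libraries numbered 4. EREG was 17.5, 9.27, 12.6 and 74.5 CPM against 16.1, 3.897, 14.3 and 22.3 CPM (log2 fold change 1.02, SE 0.58). NRG1 was 66.6, 54.6, 67.5 and 629 CPM against 66.7, 45.5, 73.9 and 211 CPM (1.06, SE 0.64).

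The other genes of the pathway were followed in 5 lists. In OIS with the control shRNA, 2 of the 6 other genes of the receptor and ligand family were tested and both fell, the other 4 (ERBB4, NRG2, NRG3 and NRG4) lying at or under 0.129 CPM on average in both groups: ERBB2, the receptor with no ligand of its own that pairs with EGFR and ERBB3, went from 148 to 37.6 CPM (log2 fold change -2.08, SE 0.29, adjusted p = 5.06e-05), and EGF from 1.37 to 0.262 CPM (-2.46, SE 0.58, adjusted p = 0.00354). Of 12 genes for ligand shedding, 4 were called higher and 1 lower, where 35.7% of all genes were called, with a median log2 fold change of 0.56 beside -0.08 over all genes. ADAM19, a metalloprotease, rose from 54.7 to 524 CPM (3.18, adjusted p = 1.24e-08). RHBDF1 and RHBDF2, the inactive rhomboids that bring ADAM17 to the cell surface, rose by 1.59 and 2.06 on the log2 scale, and ADAM12 by 2.07. TIMP3, an inhibitor of these proteases, fell by 1.53 on the log2 scale. ADAM17, the main sheddase of AREG, EREG, HBEGF and TGFA, was not called (26.9 against 35.5 CPM in DMSO, log2 fold change -0.50, SE 0.46).

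Of the genes that restrain or degrade the receptors, 16 of 17 were tested in OIS, and 2 were called higher and 2 lower (median log2 fold change 0.00), where 35.7% of all genes were called. ERRFI1, an inhibitor of the EGFR kinase, rose from 58.6 to 541 CPM (log2 fold change 3.12, SE 0.43, adjusted p = 4.38e-05), and SH3KBP1, an adaptor in receptor endocytosis, rose by 1.91. LRIG3 and LRIG1, membrane proteins of which LRIG1 promotes receptor degradation, fell by 2.72 and by 1.03 on the log2 scale. Of 18 tested adaptors and effectors 3 were called higher and 2 lower (median 0.07), beside the same 35.7% of all genes, with SHC1 at 1.59, MAP2K1 at 1.21 and GAB1 at -1.72. Of 18 genes of ERK feedback and early response, 13 were called higher and 1 lower, with a median of 1.76. IER3 (4.32), DUSP4 (4.07), SPRY2 (3.34) and DUSP5 (3.33) rose the most on the log2 scale, DUSP4 and DUSP5 being phosphatases of ERK, and SPRY1 fell by 2.94. The activated RAS fusion signals to ERK without EGFR, and the parts of the fusion and of the receptor in these genes cannot be told apart.

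After bleomycin with the control shRNA the same lists were followed. ERBB2 did not pass (117 against 140.5 CPM, log2 fold change -0.29, SE 0.23, adjusted p = 0.381) and EGF did not either (2.09 against 1.29 CPM, 0.66, SE 0.29, adjusted p = 0.0902). ERBB4, the other receptor for NRG1, had no count in the 4 DMSO libraries and 0.385 CPM on average after bleomycin, close to the floor. It was the called gene of the 3 tested (adjusted p = 0.00127). With no count in DMSO with any shRNA, it passed the filter on low counts only through bleomycin libraries, so the call follows in part from the filter. Of 12 shedding genes 2 were called higher and none lower (ADAM15 at 0.73 and TIMP3 at 0.48 on the log2 scale, median of the list 0.18), where 31.2% of all genes were called. Of 16 tested inhibitors 1 was called higher and 4 lower (median -0.17). LRIG1 fell by 1.45 and LRIG3 by 1.53 on the log2 scale, and ERRFI1 was not called (80.3 against 72.6 CPM, 0.11, SE 0.13). Of 18 tested adaptors and effectors 4 were called higher and 3 lower (median -0.16), with GAB1 at -1.79. Of 18 ERK feedback and early-response genes 11 were called higher and 1 lower, with a median of 0.69 beside -0.01 over all genes. DUSP6 (2.20), FOSL1 (2.09) and CCND1 (1.79) rose the most, and SPRY1 fell by 1.99. With the COPB2 shRNAs the ERK list had 14 and 13 genes called higher in OIS and 12 and 12 after bleomycin, and 1 called lower in each. Of all genes tested, 36.9% were called in either direction with each COPB2 shRNA in OIS, and 35.2% and 40% after bleomycin.

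**Figure D5:**
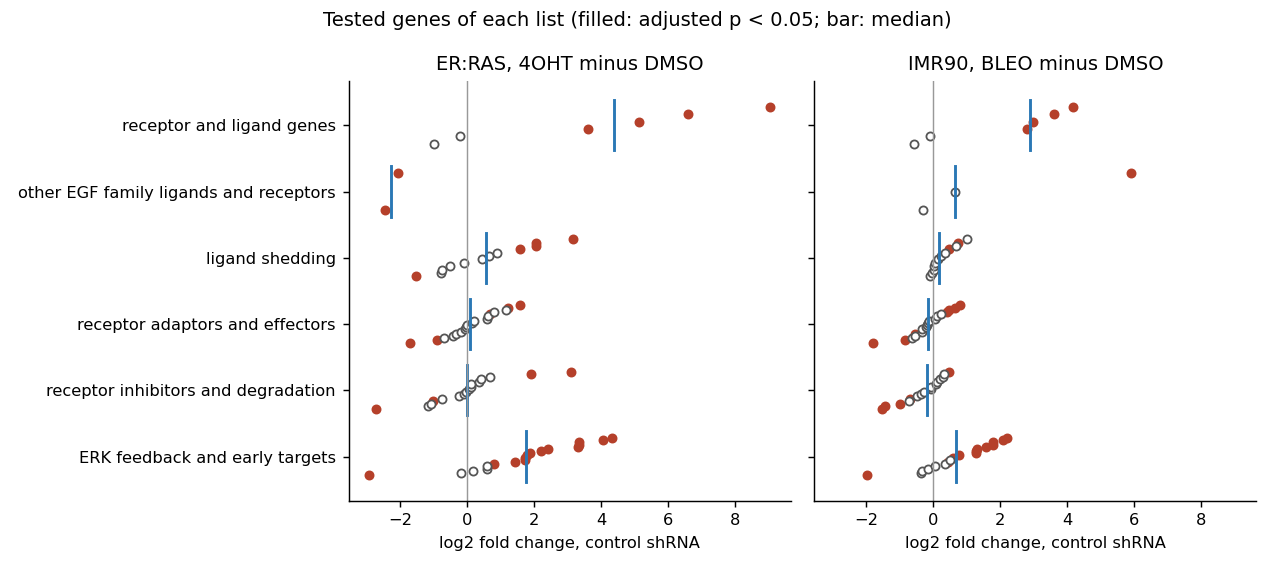
Genes of each pathway list with senescence. The x axis is the log2 fold change with the control shRNA, the left panel is OIS and the right panel bleomycin, each point is a tested gene, filled points passed an adjusted p of 0.05, and the bar is the median of the list. The rightmost point after bleomycin is ERBB4, whose size depends on the default prior count of the fit since its DMSO libraries are at 0. The 9 named genes (6 tested) have medians of 4.38 and 2.90, and the ERK feedback list 1.76 and 0.69.

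The genes with the most similar pattern over the 12 group means were found for the 6 members whose means spanned at least 2 on the log2 scale, by the root-mean-square difference of centred log2 means. For AREG these were TNFSF15 (0.44), IL1A (0.47) and GJB2 (0.55), and AREG spanned 10.2 on the log2 scale. For EREG, with a span of 6.90, they were KCNJ15 (0.24), CXCL10 (0.33) and STC1 (0.33). For HBEGF they were F11R (0.18), HTR7 (0.24) and SHISA2 (0.24), and for NRG1 they were E2F7 (0.19), LAPTM5 (0.22) and OSTN-AS1 (0.26). For TGFA they were VSIG1 (0.17), KLHL6 (0.22) and GRIN1 (0.24), close to the floor as TGFA is, and for ERBB3 DUSP19 (0.31), EPSTI1 (0.31) and CDH6 (0.31). EGFR did not reach the span.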

How the data were processed

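Poly(A)-selected RNA of 42 samples was sequenced as directional, single-end libraries. The authors deposited raw read counts per gene symbol, with no normalization, as 1 table of 28266 symbols by 42 columns, each of which matched the title of 1 sample. The sources disagree on how the counts were made: the study's methods name Tophat with hg19 and HTSeq, and the submitters' processing notes name hg38, STAR 2.7.8a, DRAGEN and DESeq2 1.32.0. Of the symbols, 26986 were current in RefSeq on GRCh38.p14 and 658 were synonyms, so positions and promoters were taken from that build. Lengths were those of canonical GENCODE 44 transcripts. Whether counting used the strand is not given in the sources used here.

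From these counts, genes were filtered with filterByExpr, scaled by TMM and fitted with edgeR's robust quasi-likelihood model in 18 ER:RAS libraries (14297 genes), 24 IMR90 libraries (14783) or all 42 (15299). P-values were adjusted by Benjamini-Hochberg over all genes tested, and genes with an adjusted p under 0.05 were called. A prior count of 2 entered the log2 levels used for spans, pattern neighbours and correlations between libraries. Log2 fold changes came from the fits with edgeR's default prior count, which is smaller, so those of genes near 0 counts can be large. A count of 3 served as the floor. Fits used R 4.3.3, edgeR 4.0.16, limma 3.58.1 and DESeq2 1.42.0, and other steps Python 3.11.15, pandas 2.3.3, scipy 1.17.1 and matplotlib 3.10.9. On simulated counts, the ER:RAS fit recovered 13% of genes with a log2 change of 1 and 66% of those with 2, and the IMR90 fit 61% and 97%. Simulated false calls were 6 and 13.

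The members and the gene lists were chosen with earlier results of these data known. All 9 members were named, with up to 4 called genes per list and senescence contrast at a log2 change of at least 1, besides genes whose role made them needed, and the 3 nearest patterns per member. No pair of libraries within a group agreed within sampling noise (54 pairs). Deviations of libraries with the same number were correlated above 0.1 for every pair in the 4 IMR90 knockdown contrasts (0.106 to 0.787) and in OIS against DMSO with both COPB2 shRNAs (0.405 to 0.766), and not elsewhere (-0.55 to 0.562 for OIS and -0.475 to 0.56 for bleomycin with the control shRNA). Alternatives were DESeq2 size factors, no filter, the Wald test of DESeq2, a fit of only the libraries compared, a replicate block, leaving out each library and CPM on plain totals. The block held 1 effect per number over all groups of a line, also where the numbers did not pair the libraries. Leaving out the IMR90 libraries numbered 4 was chosen after seeing the data.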

Additional observations from a re-analysis of the deposited data

Results flagged for a closer look

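In 46 groups of 4 IMR90 libraries, 1 for each gene and group with more than 3 counts in some library, the gap of the highest and of the lowest library to its nearest neighbour was set against the range of the group. In 8 of them 1 library lay outside the limit, and in 5 of these it was replicate 4. Chance puts about 1 in 20 groups outside.

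After bleomycin, replicate 4 was the high library for AREG with every shRNA. It had 46.54 CPM with the control shRNA (next highest 5.742), 175.1 CPM with COPB2 shRNA 1 (5.128) and 81.54 CPM with COPB2 shRNA 2 (10.04). With COPB2 shRNA 1 it was also the high library for EREG, at 74.51 CPM (17.47), and for NRG1, at 629.3 CPM (67.51).

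The other 3 lay elsewhere and at low counts. ERBB3 was low in replicate 1 after bleomycin with the control shRNA, at 0.4307 CPM (nearest 0.7773), and in replicate 3 of DMSO with COPB2 shRNA 1, at 1.155 CPM (nearest 1.681). EPGN was high in replicate 3 after bleomycin with COPB2 shRNA 2, at 0.9268 CPM (nearest 0.1314).

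The response to OIS and the response to bleomycin differed for AREG (by 4.94 on the log2 scale) and for EREG (by 3.03) in the test of the difference itself, with the values and the libraries it rests on given above.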

How the results depend on the processing

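Depth limits TGFA, BTC and EPGN, which lay at or near the floor of 3 counts (0.11 to 0.271 CPM), and ERBB3 in OIS, and the spread of AREG and NRG1 after bleomycin comes largely from the libraries numbered 4. The number of called members was equal to that reported in 96 of 111 alternative fits of the 20 contrasts and in 156 of 175 that left out 1 library. All fits that differed belonged to the 6 senescence contrasts and the difference between the responses, which are the contrasts with called members. The other contrasts had 0 called members and kept 0 in every fit, so their agreement says little about stability. With no filter, TGFA and in bleomycin cells BTC or EPGN were added in the 6 senescence contrasts. Leaving out 1 library let TGFA pass the filter on low counts, and be called, in 16 OIS fits (5 to 6 called members instead of 4 with the control shRNA and 6 instead of 5 with each COPB2 shRNA). With 0 to 3 counts per DMSO library TGFA passed only through the OIS libraries, so these calls follow in part from the filter. ERBB3 was the further addition without OIS replicate 1 of the control shRNA, and AREG was lost without bleomycin replicate 4 (3 instead of 4). The Wald test of DESeq2 gave 3, 4 and 3 instead of 4, 5 and 4 after bleomycin, AREG having no adjusted p, and fitting only the libraries compared gave 4 instead of 5 in OIS with COPB2 shRNA 2. In the difference between the OIS and bleomycin responses, leaving out 1 library gave 1 to 3 called members instead of 2, with 1 when ER:RAS DMSO replicate 2 was left out. The replicate block gave 3 there, NRG1 being the addition (2.57, adjusted p = 0.00253), and changed no other call of a member.

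NRG1 also passed in this difference with DESeq2 size factors (2.27, adjusted p = 0.0439), with the Wald test of DESeq2 (2.27, 0.0217), when only the libraries compared were fitted (2.22, 0.0155), without bleomycin replicate 4 (2.89, 0.00963) and without all IMR90 libraries numbered 4 (2.97, 1.1e-06), and HBEGF passed without OIS replicate 3 (1.15, 0.0421). The fit without all libraries numbered 4 was chosen after their NRG1 levels were seen. With CPM on plain totals, 9 of 60 group means of members moved by more than 1 SD, those of AREG and NRG1 in all 3 OIS groups among them.

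Some log2 values changed sign when 1 library was left out. EGFR ranged from -0.84 to 0.17 in OIS, from -0.16 to 0.0942 after bleomycin and from -0.43 to 0.0556 after bleomycin with COPB2 shRNA 2, and its response difference from -0.74 to 0.24 (0.0165 without the IMR90 libraries numbered 4). The response difference of ERBB3 ranged from -1.77 to 0.0791. For COPB2 shRNA 1 against the control shRNA after bleomycin, AREG ranged from -1.76 to 3.34 (-0.0586 without the libraries numbered 4), EREG from -0.12 to 1.31 and NRG1 from -0.67 to 1.71. None of these was called in the reported fits. Of 72 knockdown log2 values of members, 0 of 1059 alternatives passed, the lowest adjusted p being 0.2996, and 46 changed sign when 1 library was left out and 6 under another alternative.

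Counts over all genes moved more. For COPB2 shRNA 1 and 2 in OIS the 20 and 32 calls became 44 and 76 with the replicate block, 51 and 70 with DESeq2 and 0 and 0 when only the libraries compared were fitted. For shRNA 2 after bleomycin the 11 calls became 6 with no filter, 28 with the replicate block, 36 with DESeq2, 1 with only the libraries compared and 4 without the libraries numbered 4. The 1 call for shRNA 2 in DMSO-treated ER:RAS cells became 2 with the block, 3 with DESeq2 and 0 with only the libraries compared, that for shRNA 1 there 0 with only the libraries compared, and that for shRNA 2 in DMSO-treated IMR90 cells 2 with DESeq2. The block gave 4 and 4 calls for the differences between knockdown effects in ER:RAS cells instead of 0, 4711 instead of 3101 for the difference between responses, and 881 instead of 53 between the uninduced lines, where DESeq2 gave 165, only the libraries compared 2 and the fit without the libraries numbered 4 31. With only the libraries compared, OIS with the control shRNA had 2911 calls instead of 5098 and bleomycin with COPB2 shRNA 2 had 3734 instead of 5915. The causes were not tested.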
